A study of Rattus norvegicus with 10 samples.

Results

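The genes described here carry out fatty acid oxidation and ketone body metabolism in the liver, and they were followed through the first day after a burn in rats. A list of 39 genes was used, and every probe set (a group of short oligonucleotides that reports 1 transcript) whose only gene symbol in the array's probe table is on that list was taken. The array held 63 such probe sets for 35 of the 39 genes, out of 8799 probe sets in all, and 4 genes of the list (Acaa1a, Crat, Eci2 and Oxct1) had no probe set of their own and were not analysed here. Expression arrays of total RNA from liver formed 5 groups of 2 arrays: sham controls, labelled 0 h, and rats with a burn injury whose livers were taken 1, 4, 8 or 24 h later. The labels give no strain, age, sex, burn size, feeding state or pooling, and do not state if both arrays of a group stem from different animals. Each p-value therefore covers the spread between arrays alone, and that spread may be technical. There was 1 sham group, taken at 0 h, so time of day or fasting after the operation cannot be told apart from the time after the burn.

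A fatty acid that enters a hepatocyte is bound by a carrier protein and joined to coenzyme A, and the acyl chain then crosses into mitochondria as a carnitine ester. Inside, repeated rounds of dehydrogenation, hydration, dehydrogenation and thiolysis (beta-oxidation) release acetyl-CoA, much of which the fasting liver turns into the ketone bodies acetoacetate and beta-hydroxybutyrate for export. Peroxisomes run a parallel route for very long and branched chains, and the nuclear receptor PPAR-alpha, encoded by Ppara, is known to switch on genes of both routes by binding, with a partner receptor, to a direct repeat of short half-sites.

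Promoter sequences from RefSeq on the rat build GRCr8 were found for 31 of the 35 genes on the array, with no entry for Acaa2, Acadl, Cpt1b and Decr1. The 250 bases before each start were searched on both strands for 3 strings: a direct repeat (2 copies of AGGNCA with 1 base of any kind between them), the single half-site AGGTCA and the GC box GGGCGG. The direct repeat was found in 0.368% of 33469 promoters and in 1 of the 31, that of Fabp1, the liver's fatty acid carrier. The half-site was found in 14.1% of all promoters and in 4 of the 31 (Acadvl, Eci1, Fabp1 and Hsd17b4), and in Fabp1 it overlaps the direct repeat. The GC box was found in 30.5% of all promoters and in 18 of the 31. Shown are the promoters of Fabp1, which holds the direct repeat, of Eci1 and Pex11a, whose RNA rose, and of Bdh1, whose RNA fell. Capitals mark the direct repeat in Fabp1, the half-site in Eci1, and the GC box in Pex11a and Bdh1, on either strand. Eci1 also holds a GC box, which is left in small letters. A match describes these letters only.
Fabp1, chr4:104749090-104749339, plus strand: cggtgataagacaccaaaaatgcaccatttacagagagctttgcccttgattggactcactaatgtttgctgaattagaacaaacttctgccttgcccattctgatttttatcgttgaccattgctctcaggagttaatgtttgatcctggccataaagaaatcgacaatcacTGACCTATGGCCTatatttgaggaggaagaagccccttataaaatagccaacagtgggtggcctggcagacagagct
Eci1, chr10:13961000-13961249, plus strand: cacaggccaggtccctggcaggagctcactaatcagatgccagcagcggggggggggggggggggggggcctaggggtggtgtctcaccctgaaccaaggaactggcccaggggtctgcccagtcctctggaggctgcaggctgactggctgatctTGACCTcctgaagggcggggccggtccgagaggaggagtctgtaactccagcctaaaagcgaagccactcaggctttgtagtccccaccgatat
Pex11a, chr1:143096492-143096741, minus strand: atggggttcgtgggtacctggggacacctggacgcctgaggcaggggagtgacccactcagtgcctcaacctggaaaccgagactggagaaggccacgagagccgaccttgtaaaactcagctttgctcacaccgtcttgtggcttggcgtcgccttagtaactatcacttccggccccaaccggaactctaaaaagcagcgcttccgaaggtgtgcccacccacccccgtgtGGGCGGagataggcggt
Bdh1, chr11:82842637-82842886, minus strand: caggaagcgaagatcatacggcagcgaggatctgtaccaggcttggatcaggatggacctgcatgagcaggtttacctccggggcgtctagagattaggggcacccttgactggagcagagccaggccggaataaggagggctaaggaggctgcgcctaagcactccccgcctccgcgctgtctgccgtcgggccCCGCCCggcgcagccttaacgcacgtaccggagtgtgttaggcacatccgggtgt

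The deposited values were linear intensities with array medians between 100.1 and 131.1. Values under 36.4, called the floor, were raised to it before log2 was taken, and a probe set was tested when it lay above the array's median on at least 2 of the 10 arrays. Of the 63 probe sets, 58 for 34 genes passed, and Acot1 was the only gene on the array with none. Arrays of a group correlated at 0.9483 to 0.9552, above every pair from different groups (at most 0.9411). Hepatocyte markers were present throughout, 9 of the 10 listed genes being on the array and above the floor on all arrays (summed intensity 195529 to 306753). Markers of exocrine pancreas also moved between groups: 11 of 12 were on the array, and they summed to 9236.3 and 9917.9 in sham, 42327.4 and 43987.8 at 1 h, 2222.7 and 2052.1 at 4 h, 13102.7 and 12454.5 at 8 h, and 1953.3 and 2349.6 at 24 h. In whole tissue, fewer cells of a type and less RNA per cell cannot be told apart.

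In the first hour no probe set of the 58 passed the test. At 4 and 8 h a small group was called higher, namely Cpt1a, Eci1, Acaa1b and 1 probe set each of Pex11a and Cd36. At 8 h, 1 probe set each of Crot and Etfdh was called lower. At 24 h Acsl1, Bdh1, Acox3 and 1 probe set each of Acsl5, Cd36 and Etfdh were called lower. Cpt1a, Acaa1b and 1 probe set of Eci1 were called higher at that time. The central mitochondrial enzymes, such as the acyl-CoA dehydrogenases and the trifunctional protein, did not pass the test at any time.

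Calls were made with limma's moderated test at a Benjamini-Hochberg adjusted p under 0.05, the adjustment running over all 5285 tested probe sets. At 1 h, 0 of 58 were called, against 1.44% of all tested probe sets, and 7 of the 58 had an unadjusted p under 0.05 (3 higher, 4 lower), beside 636 of all 5285, so this share was near that of all probe sets. At 4 h, 2 of 58 (3.45%) were called, both higher, against 4.35% of all (2.37% higher), so this share was near that of all probe sets. At 8 h, 7 of 58 (12.1%) were called, 5 higher and 2 lower, against 3.50% of all (1.55% higher and 1.95% lower). At 24 h, 11 of 58 (19.0%) were called, 3 higher and 8 lower, against 10.3% of all (3.94% higher and 6.34% lower). Several genes have more than 1 probe set among the 58. With only the brightest probe set of each of the 34 genes, 2 were called higher and 1 lower at 8 h. At 24 h they were 3 higher and 4 lower. Across the 4 times 14 probe sets of 11 genes were called at least once, 24.1% against 13.7% of all, and the F test over the burn times, which asks whether any of them differed, called 15 probe sets of 10 genes (25.9% against 15.3%). The 4 comparisons share the sham arrays.

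**Figure D1:**
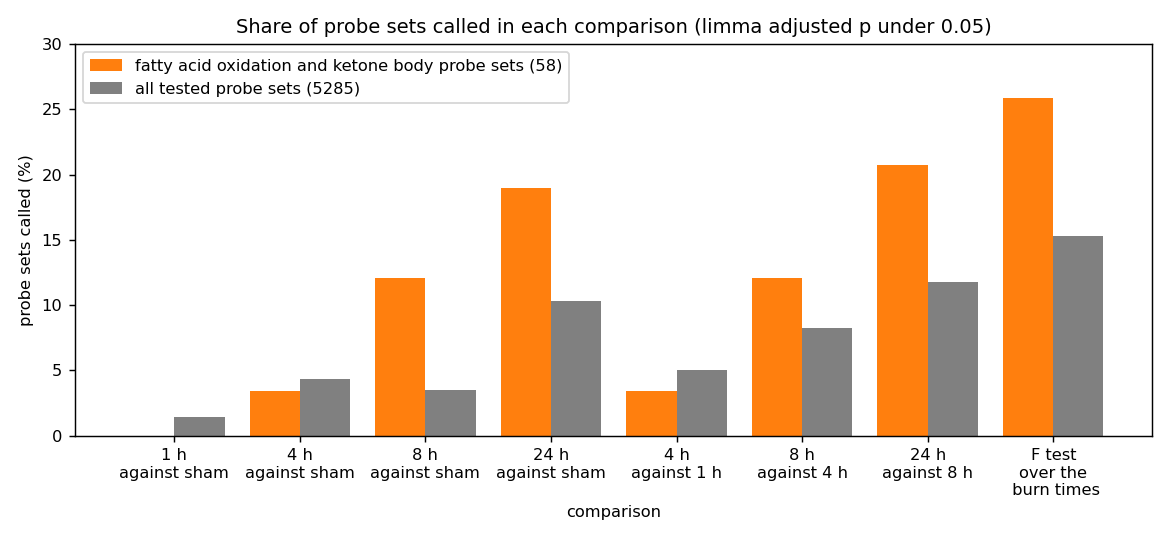
The bars give the percentage of probe sets called (limma adjusted p under 0.05) in each comparison, for the 58 fatty acid oxidation and ketone body probe sets and for all 5285 tested. The orange bar is the lower one at 1 h (0 against 1.44%) and 4 h (3.45 against 4.35%) and the higher one at 8 h (12.1 against 3.50%) and 24 h (19.0 against 10.3%).

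The middle of the distribution moved little. The median log2 change of the 58 probe sets was 0.08 after 1 h, 0.07 after 4 h, 0.01 after 8 h and -0.10 after 24 h, beside 0.01, -0.04, -0.10 and -0.04 over all probe sets. Both burn arrays were above both sham arrays in 43.1%, 31.0%, 32.8% and 22.4% of the 58 at the 4 times in order, beside 21.7%, 20.1%, 18.5% and 24.6% of all probe sets. They were below both sham arrays in 25.9%, 19.0%, 22.4% and 41.4% of the 58, beside 20.9%, 25.8%, 29.6% and 29.2% of all. With each array scaled to a common median instead, the median of all probe sets at 8 h moved from -0.10 to 0.06, and the 58 split into 41 above and 17 below 0 in place of 30 and 28.

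**Figure D2:**
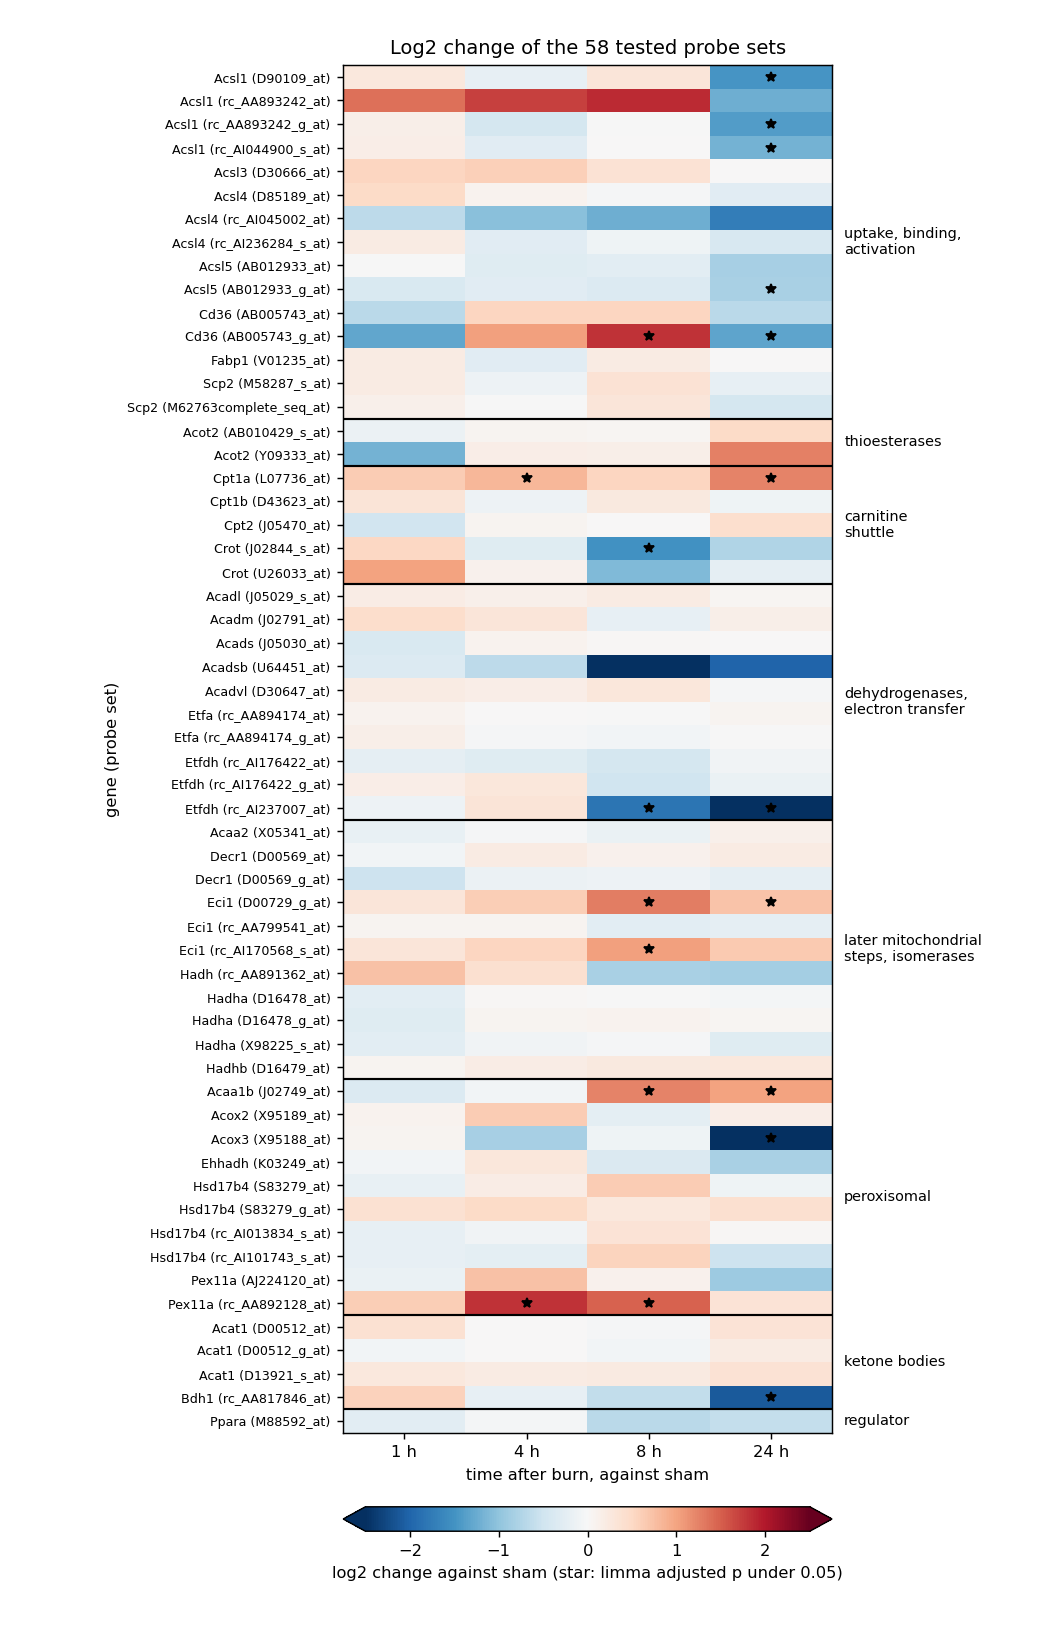
Each row is 1 of the 58 tested probe sets, in order of role, and each column a time after the burn; the colour gives the log2 change against sham (red higher, blue lower, saturated beyond the scale) and a star marks a limma adjusted p under 0.05. Stars lie on red cells mainly at 4 and 8 h, on blue cells mainly at 24 h, and on none at 1 h.

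At 24 h, 13 of the 15 tested probe sets of the genes that bring fatty acids in and activate them lay below sham, with a median log2 change of -0.82, and 5 passed the test as lower, none as higher, where 6.34% of all probe sets were called lower. The 5 belong to 3 genes, 3 of them to Acsl1, and the other 4 genes of the 7 had no call at that time. At 1 h the median was 0.17, at 4 h -0.21 and at 8 h 0.21, and the only call at those times was a probe set of Cd36 at 8 h, as higher.

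Acsl1, the main liver enzyme that joins long-chain fatty acids to coenzyme A, had no call through 8 h and fell at 24 h. On probe set D90109_at the sham arrays read 4169.4 and 3883, the 1 h arrays 5449.8 and 4253.4, the 4 h arrays 3577 and 3372.6, the 8 h arrays 5323.8 and 4592.5 and the 24 h arrays 1697 and 1235.3. Both 24 h arrays were below all 8 others, a 2.78-fold fall against sham (log2 change -1.47, SE 0.21, limma adjusted p = 0.00782). Probe set rc_AA893242_g_at went from 2495.1 and 2352.6 in sham to 957.8 and 891.2 at 24 h (log2 change -1.39, SE 0.15, limma adjusted p = 0.00241, 2.62-fold lower). Probe set rc_AI044900_s_at went from 5258.7 and 4818.3 to 2395.1 and 2056.5 (log2 change -1.18, SE 0.17, limma adjusted p = 0.00759, 2.27-fold lower). A dimmer probe set, rc_AA893242_at, read 121.6 and 58.9 in sham, 311.6 and 153.2 at 1 h, 250.3 and 308.8 at 4 h, 522.2 and 181.8 at 8 h and 34 and 34.9, under the floor, at 24 h; both arrays were above sham at 1, 4 and 8 h, and it passed the F test (limma adjusted p = 0.0353) but no single time against sham. The rc_AI044900_s_at call ended when the second 24 h array was left out (limma adjusted p = 0.05004). Pancreas markers were lower at 4 and 24 h than in sham and higher at 1 and 8 h, as was the mean of D90109_at. The mean of rc_AI044900_s_at had the same directions, but at 8 h it was 5077.2 beside 5038.5 in sham. The other probe sets differed: rc_AA893242_g_at was not higher at 8 h (2415.7 beside 2423.85), and rc_AA893242_at was higher at 4 h (279.55 beside 90.25). The 4 macrophage markers on the array of 8 listed summed to 2686.1 and 3161.1 in sham and to 1945.2 and 2102.8 at 24 h. The part of pancreas cells and macrophages in the fall was not tested.

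Acsl5, another acyl-CoA synthetase, was lower at 24 h on both of its probe sets, with 1 call. AB012933_g_at read 4378.5 and 4064.2 in sham, 3420.7 and 3083.9 at 1 h, 3566.5 and 3334.5 at 4 h, 3585.7 and 3053 at 8 h, and 2803.2 and 2047.8 at 24 h. Every burn array lay below both sham arrays, and the 24 h change passed the test (log2 change -0.82, SE 0.20, limma adjusted p = 0.045, 1.76-fold lower). The other probe set gave -0.82 with an adjusted p of 0.0569. The call ended without any single array other than the first at 24 h (limma adjusted p up to 0.179) and with arrays scaled to a common median (0.141). Acsl3 and Acsl4, which act on other chain types, had no call: at 24 h the tested Acsl3 probe set had a log2 change of 0.01 and the 3 Acsl4 probe sets lay between -1.72 and -0.29.

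Cd36, a membrane protein that takes up long-chain fatty acids, swung widely on a dim probe set. AB005743_g_at read 62.9 and 132.2 in sham, 33.4 and 38.1 at 1 h, 197.4 and 172.2 at 4 h, 335 and 306.6 at 8 h and 35.3 and 34 at 24 h. The 8 h arrays were above and the 24 h arrays below all sham arrays, with the 24 h pair under the floor. It was 3.52-fold higher at 8 h (log2 change 1.81, SE 0.32, limma adjusted p = 0.0342) and at least 2.51-fold lower at 24 h (limma adjusted p = 0.0449). The second probe set, AB005743_at, with 177.6 and 111.1 in sham, 183.1 and 225.3 at 8 h and 98.9 and 79.1 at 24 h, had no call. A further 5 probe sets carry the symbols Cd36l1 and Cd36 together and so are not counted among the 63. The brightest of them, AF072411_g_at, read 747.4 and 609.3 in sham, 490.1 and 426.1 at 1 h, 866.9 and 898.3 at 4 h, 1039.7 and 1032 at 8 h and 384.6 and 385.6 at 24 h, and its 24 h change passed the test (log2 change -0.81, limma adjusted p = 0.0247). The other 4 did not pass at 24 h (limma adjusted p from 0.13 to 0.691), and none of the 5 passed at 8 h, where their log2 changes were 0.62 to 0.91 and the smallest limma adjusted p was 0.1, of AF072411_g_at. The 8 h call of AB005743_g_at remained when the second sham array was left out and ended without any other single array (limma adjusted p up to 0.125); its 24 h call remained only without the first sham array or when the 10th percentile was the floor, and ended under every other alternative it could be fitted in (limma adjusted p up to 0.831). Macrophage markers summed to 3332.5 and 3360.2 at 8 h and 1945.2 and 2102.8 at 24 h, and the defining macrophage gene Csf1r read 18.3 to 68 over all arrays. The 5 adipose markers on the array of 7 listed summed to 3087.9 and 3592.5 in sham, 3509.6 and 3721.2 at 8 h and 3762.9 and 3986.9 at 24 h. Most of each sum was 1 Lep probe set, D49653_s_at, with 2686.1 and 3213.4 in sham, 3162.3 and 3363.1 at 8 h and 3140 and 3373.2 at 24 h. The other 2 Lep probe sets read 35.1 to 340.3 over all arrays, and neither was above sham on both 24 h arrays. Among the 5 markers Fabp4 read 7.6 to 40.3 over all arrays. Cfd read 291 and 189 in sham, 247.8 and 250.9 at 8 h and 390.3 and 298 at 24 h. The part of macrophages and adipocytes in the result was not tested.

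Fabp1, the abundant cytosolic carrier of the hepatocyte whose promoter holds the direct repeat shown above, did not pass the test. It read 31419.2 and 33559.8 in sham, 35489.1 and 38961.1 at 1 h, 26018.9 and 27385.7 at 4 h, 37762.3 and 37263 at 8 h and 31269.5 and 33744.6 at 24 h. The 4 h arrays were the lowest of the 10 and the changes against sham ran from -0.28 to 0.21. Scp2, a lipid transfer protein with a peroxisomal thiolase form, had no call on either probe set.

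**Figure D3:**
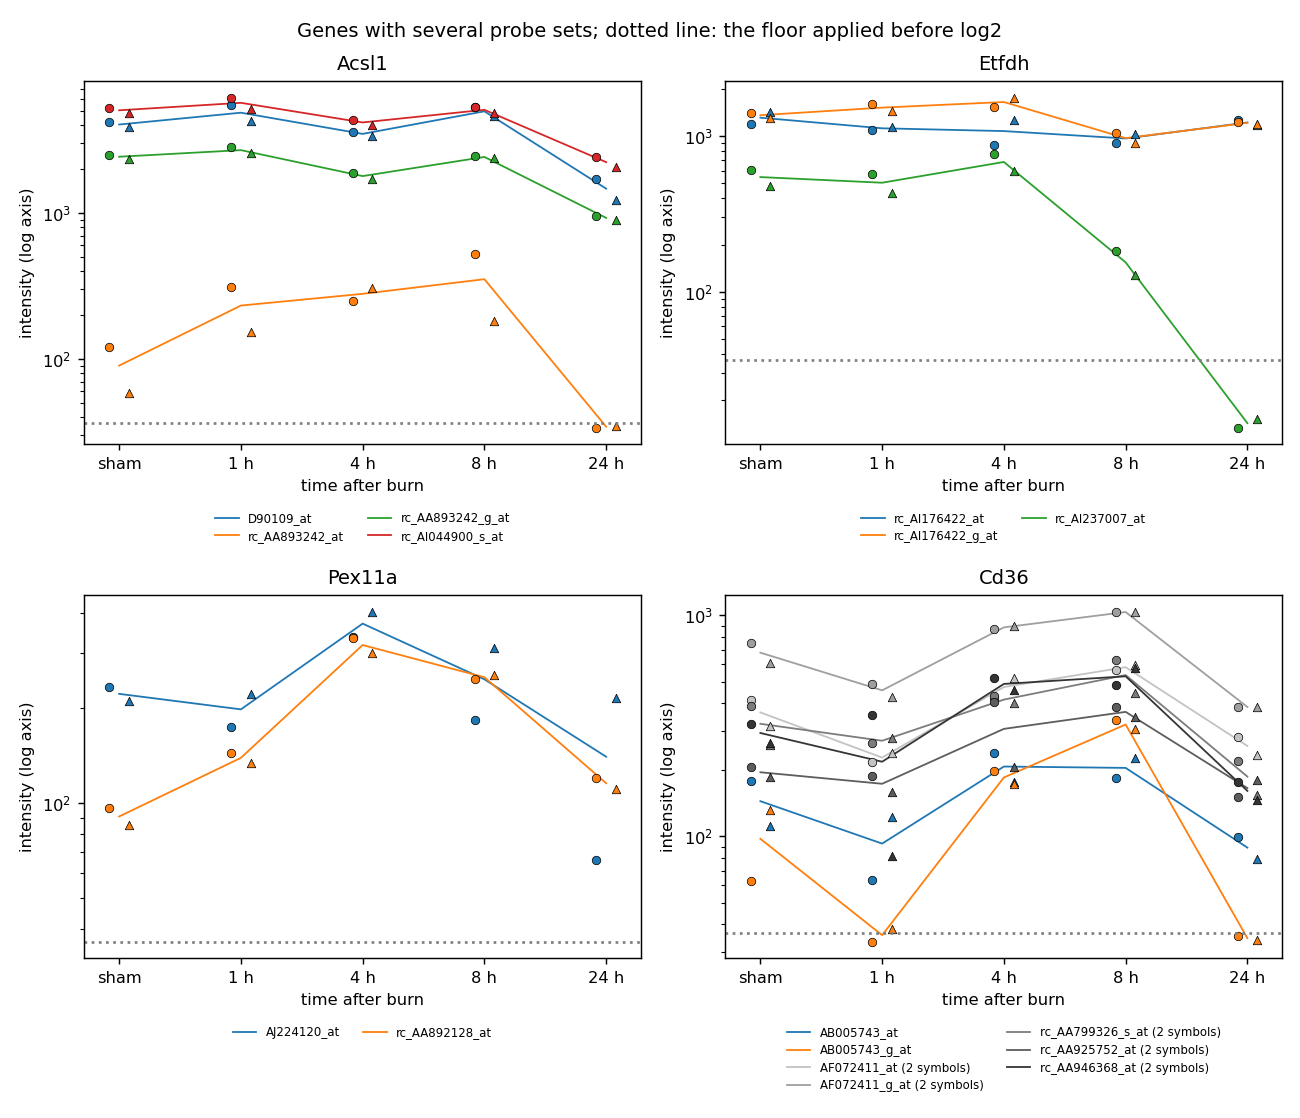
Intensity (log axis) by group for 4 genes with several probe sets; circles are array 1, triangles array 2, lines join group means, the dotted line is the floor of 36.4, and grey lines for Cd36 are the 5 probe sets with 2 symbols. The Acsl1 probe sets are all lowest at 24 h, the Cd36 probe sets are higher at 8 h than at 24 h, and only 1 of 3 Etfdh probe sets falls to below the floor.

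Of the thioesterases, Acot2, which cleaves acyl-CoA back to the free acid in mitochondria, had no call on its 2 probe sets. Y09333_at read 217.2 and 96.2 in sham, 14.8 and 112.5 at 1 h, 190.2 and 138.4 at 4 h, 114.9 and 222 at 8 h and 356.9 and 332.1 at 24 h. The 24 h arrays were the highest, but the sham arrays differed by more than 2-fold and the change did not pass (log2 change 1.25, limma adjusted p = 0.266). Acot1, its cytosolic relative, was not tested: it was under the floor on both sham arrays and read 76.4 and 58.8 at 24 h. A probe set that carries the symbols Acot2 and Acot1 together, Y09333_g_at, read 76.9 and 54.1 in sham, 43.6 and 52.7 at 1 h, 284.2 and 351.5 at 4 h, 103 and 385.6 at 8 h and 238.5 and 564.2 at 24 h. Its arrays were above sham at 4, 8 and 24 h, and no change passed (log2 change 2.29 at 4 h, limma adjusted p = 0.11, and 2.51 at 24 h, limma adjusted p = 0.0531).

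In the carnitine shuttle, Cpt1a rose at 4 and 24 h, Crot fell at 8 h, and Cpt2 passed the F test over the burn times. The muscle form Cpt1b, measured near 250 in sham on its tested probe set, had no call.

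Cpt1a, the rate-controlling outer-membrane step of mitochondrial entry, read 1732.5 and 1915.5 in sham, 2950.2 and 2687.8 at 1 h, 3220.8 and 3298.2 at 4 h, 2909.5 and 2429.2 at 8 h and 4181.9 and 4405.8 at 24 h. All 8 burn arrays were above both sham arrays. It was 1.79-fold higher at 4 h (log2 change 0.84, SE 0.16, limma adjusted p = 0.0315) and 2.36-fold higher at 24 h (log2 change 1.24, SE 0.16, limma adjusted p = 0.00506). The 1 h and 8 h changes were 0.63 and 0.55 and did not pass (adjusted p = 0.167 and 0.128). The 4 h call ended without any single sham, 1 h, 4 h or 24 h array (limma adjusted p up to 0.14) and with arrays scaled to a common median (0.103); the 24 h call remained with every array left out in turn.

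Cpt2, the inner-membrane partner that returns the chain to coenzyme A, read 1144.6 and 1196.5 in sham, 867.1 and 806.8 at 1 h, 1260.7 and 1186.4 at 4 h, 1204.7 and 1161 at 8 h and 1616.3 and 1529.9 at 24 h. The 1 h pair was the lowest and the 24 h pair the highest. The F test passed (limma adjusted p = 0.0343), while neither the 1 h change of -0.48 nor the 24 h change of 0.43 passed alone (limma adjusted p = 0.225 and 0.113).

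Crot, the peroxisomal carnitine octanoyltransferase, was measured by 2 probe sets. J02844_s_at read 723.8 and 740.4 in sham, 1107.7 and 981.1 at 1 h, 645.5 and 547.8 at 4 h, 316.3 and 208 at 8 h and 549.5 and 343 at 24 h. U26033_at read 422.3 and 400.4, 889.3 and 770.4, 533.4 and 368.8, 232.8 and 159, and 314.9 and 394.7 at the same times. On both, the 1 h arrays were the highest and the 8 h arrays the lowest. The 8 h fall was 2.85-fold on the first (log2 change -1.51, SE 0.29, limma adjusted p = 0.0415) and on the second the log2 change of -1.10 did not pass (adjusted p = 0.079). The call ended without any single sham, 1 h, 4 h or 8 h array (limma adjusted p up to 0.161), under quantile normalization (0.0761) and with arrays scaled to a common median (0.124).

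**Figure D4:**
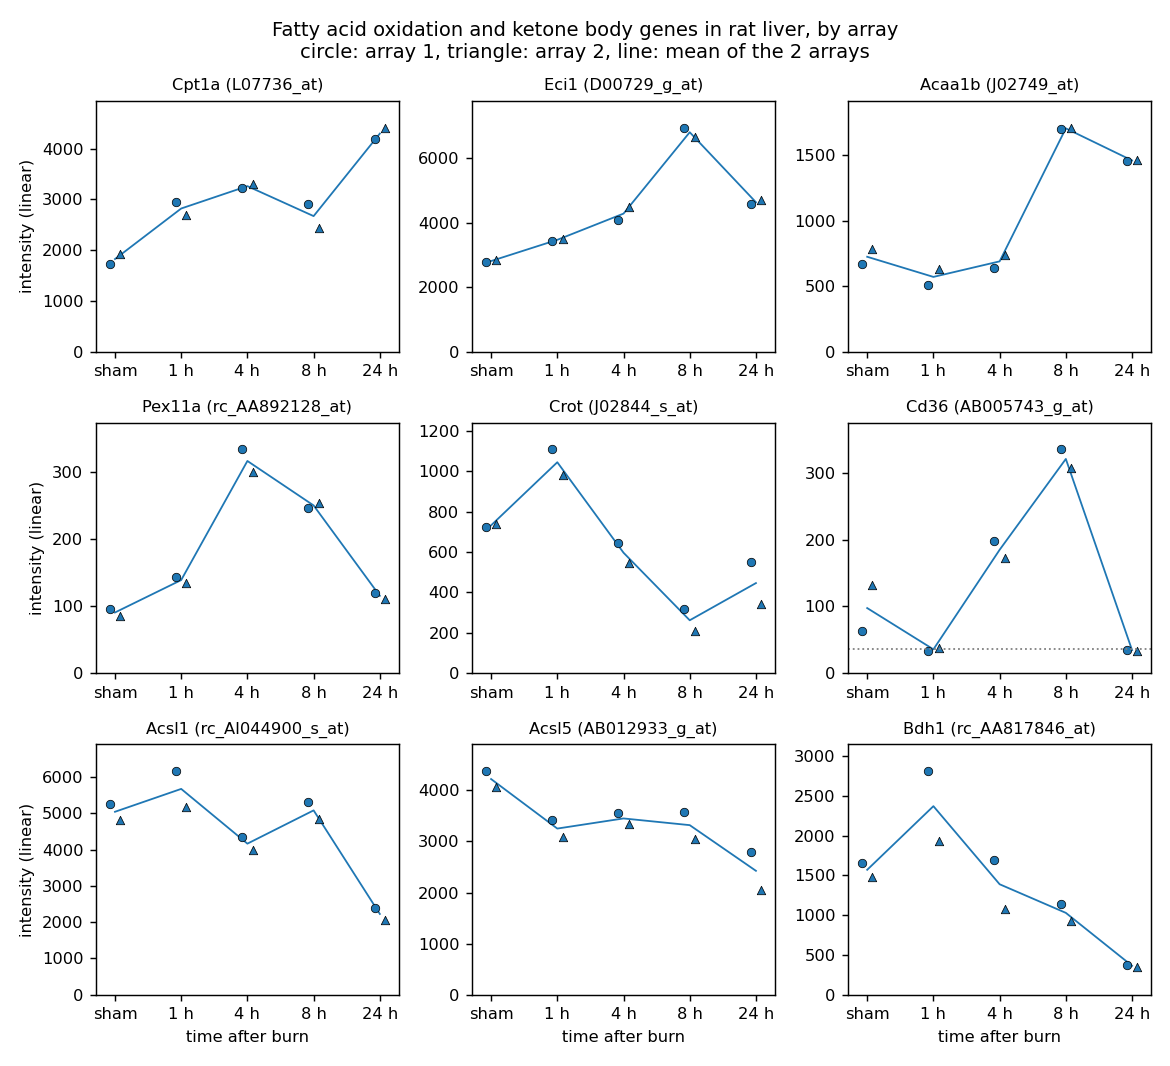
Linear intensity by group for 9 probe sets called in at least 1 comparison with sham; circles are array 1, triangles array 2, lines join group means and the dotted line is the floor. Cpt1a is highest at 24 h, Eci1 and Acaa1b at 8 h and Pex11a at 4 h, Crot is lowest at 8 h, and Acsl1, Acsl5 and Bdh1 are lowest at 24 h.

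Among the dehydrogenases, Acadl, Acadm, Acads and Acadvl, which open each round of mitochondrial oxidation for long, medium, short and very long chains, had no call, and neither did Etfa, a subunit of the flavoprotein that carries off their electrons. Acadm read 4219 and 2825.1 in sham, 4507.3 and 4916.9 at 1 h, 4386.8 and 4103.7 at 4 h, 2934.4 and 3040.6 at 8 h and 3847.9 and 3749.5 at 24 h, and the sham arrays lay on both sides of the 8 h and 24 h arrays. Acadvl read 1028.5 and 964.2 in sham and between 879.1 and 1350.7 after the burn. Together with the later mitochondrial steps, 13 probe sets of 9 genes with no call had intensities above 600 on every array, and their log2 changes ran from -0.51 to 0.45 over the 4 times. The widest 95% intervals of these changes reached -0.90 and 0.94. A missed threshold does not show that these genes were unchanged.

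Acadsb, the dehydrogenase for short branched chains, had the largest change without a call. Its arrays read 575.1 and 469.1 in sham, 463.5 and 362.6 at 1 h, 418.4 and 261.2 at 4 h, 163.6 and 41.1 at 8 h and 310 and 54.2 at 24 h. All burn arrays were below both sham arrays, but the 8 h and 24 h pairs were far apart and the 8 h change did not pass (log2 change -2.66, SE 0.89, limma adjusted p = 0.171).

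Etfdh passes electrons from the flavoprotein to ubiquinone, and its 3 probe sets disagreed. On rc_AI237007_at the arrays read 609.2 and 480 in sham, 571.3 and 430.8 at 1 h, 767.9 and 594 at 4 h, 181.3 and 127.2 at 8 h and 13.4 and 15.2 at 24 h. That is a 3.56-fold fall at 8 h (log2 change -1.83, SE 0.26, limma adjusted p = 0.0185) and an at least 14.9-fold fall at 24 h, where both arrays were under the floor (limma adjusted p = 0.000336). On rc_AI176422_g_at the arrays read 1409.9 and 1310.5 in sham, 1038 and 899 at 8 h and 1232.2 and 1197.6 at 24 h, with changes of -0.49 and -0.16 that did not pass (limma adjusted p = 0.165 and 0.597). The third, rc_AI176422_at, changed by -0.10 at 24 h (adjusted p = 0.834). The level of the Etfdh transcript as a whole is therefore not settled by these probe sets, and why they differ was not tested. The 8 h call ended without either sham array or the second 8 h array (limma adjusted p up to 0.0942); the 24 h call remained under every alternative.

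Eci1 was the only gene of the later mitochondrial steps and isomerases to be called, as higher at 8 and 24 h. Eci1 shifts the double bond of unsaturated fatty acids so that they can be oxidised, and its promoter holds the half-site shown above. On D00729_g_at the arrays read 2792.3 and 2833.2 in sham, 3432.1 and 3509.2 at 1 h, 4084.5 and 4484.6 at 4 h, 6944 and 6674.9 at 8 h and 4569.2 and 4705.2 at 24 h. All 8 burn arrays were above sham and the peak was at 8 h, 2.42-fold (log2 change 1.28, SE 0.14, limma adjusted p = 0.00683), with 1.65-fold left at 24 h (log2 change 0.72, SE 0.14, limma adjusted p = 0.0211). The bright probe set rc_AI170568_s_at went the same way, 2.02-fold higher at 8 h (log2 change 1.02, SE 0.18, limma adjusted p = 0.0342). A dim one, rc_AA799541_at, with 121.8 and 205.4 in sham and 125.7 and 136.3 at 8 h, had no call. Without the second sham array the 8 h call of D00729_g_at ended (limma adjusted p = 0.0516), and its 24 h call ended without any single sham or 24 h array (up to 0.101) and with arrays scaled to a common median (0.0563). For rc_AI170568_s_at the call remained only without the first 4 h array when arrays were left out singly (limma adjusted p up to 0.126).

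Hadha and Hadhb, the subunits of the trifunctional protein that carries out the last steps for long chains, had no call on 4 probe sets. Hadha D16478_at read 3870.7 and 4173.7 in sham and 3341.9 to 4270.2 after the burn. Acaa2, the thiolase of the matrix, read 8645.3 and 9770.6 in sham and 7680.7 to 10305.5 after the burn. Decr1, which reduces dienoyl intermediates of unsaturated chains, had its largest change at 1 h on D00569_g_at, from 2242.8 and 2435.7 in sham to 1612.1 and 1669.1, which did not pass (log2 change -0.51, limma adjusted p = 0.269). Hadh, the short-chain hydroxyacyl-CoA dehydrogenase, was dim, at 116.5 and 144.4 in sham, and had no call.

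In the peroxisomal route, Pex11a and Acaa1b rose and Acox3 fell, while Acox2, Ehhadh and Hsd17b4 had no call against sham. At 8 h, 7 of the 10 probe sets lay above 0 with a median log2 change of 0.31, beside -0.10 over all probe sets. The 10 belong to 6 genes. Those above 0 belong to Acaa1b, Pex11a and Hsd17b4, most of them to Hsd17b4, and the 3 below 0 to Acox2, Acox3 and Ehhadh.

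Pex11a, a membrane protein that drives the growth and division of peroxisomes, was, with Cpt1a, called higher at 4 h. On rc_AA892128_at the arrays read 96.4 and 85.1 in sham, 144.2 and 134.2 at 1 h, 334.3 and 299.9 at 4 h, 247.2 and 254.1 at 8 h and 120.3 and 111 at 24 h. Every burn array exceeded both sham arrays, with the peak at 4 h. It was 3.50-fold higher at 4 h (log2 change 1.81, SE 0.15, limma adjusted p = 0.001) and 2.77-fold at 8 h (log2 change 1.47, SE 0.15, limma adjusted p = 0.00605). The second probe set, AJ224120_at, with 232.7 and 211.4 in sham and 336.9 and 404.5 at 4 h, had no call. The 8 h call ended without the second sham array (limma adjusted p = 0.0502); the 4 h call remained with every array left out in turn.

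Acaa1b, the peroxisomal thiolase that ends each round of oxidation there, rose late. Its arrays read 666.9 and 781.5 in sham, 510.1 and 630.9 at 1 h, 639.4 and 738.9 at 4 h, 1700.5 and 1707.5 at 8 h and 1452.1 and 1466.1 at 24 h. The 8 h and 24 h arrays stood above all the others, 2.36-fold over sham at 8 h (log2 change 1.24, SE 0.18, limma adjusted p = 0.0186) and 2.02-fold at 24 h (log2 change 1.02, SE 0.18, limma adjusted p = 0.0145). A probe set that carries both Acaa1b and Acaa1a, J02749_g_at, read 1422.3 and 1530.4 in sham, 2589.6 and 2390 at 8 h and 1768.9 and 1783.1 at 24 h. Its 8 h change passed the test (log2 change 0.75, limma adjusted p = 0.0445). Its 24 h change did not (log2 change 0.27, limma adjusted p = 0.3245). The 2 genes are near-identical copies, so the share of each in the signal is uncertain. The 8 h call of the Acaa1b probe set J02749_at ended without either sham or either 8 h array (limma adjusted p up to 0.0955). Its 24 h call ended on leaving out the first sham array or 1 of the 24 h arrays (up to 0.0734).

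Acox3, a peroxisomal oxidase for branched chains, read 156.1 and 366.9 in sham, 265.2 and 235.1 at 1 h, 70.8 and 256.1 at 4 h, 280 and 176.6 at 8 h and 35.6 and 24.3 at 24 h. Both 24 h arrays were under the floor, at least 6.58-fold below sham (limma adjusted p = 0.0391). The call remained only without either 4 h array when arrays were left out singly (limma adjusted p up to 0.182), and ended with arrays scaled to a common median (0.0508), with no filter (0.0917) or with the 50th percentile as the floor, where the log2 change went from -2.72 to -0.98 (0.239). Acox2, the oxidase for bile acid intermediates, read 957 and 771.6 in sham and 1376.5 and 1283.7 at 4 h (log2 change 0.63, limma adjusted p = 0.128). Hsd17b4, the bifunctional enzyme for branched chains, had 4 probe sets with log2 changes of 0.27 to 0.64 at 8 h, none of which passed. Ehhadh, the classical bifunctional enzyme, read 1696.6 and 1293.5 in sham and 911.9 and 785.1 at 24 h (log2 change -0.81, limma adjusted p = 0.334).

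Of the ketone body enzymes, Bdh1 fell at 24 h and Acat1 had no call. Bdh1 interconverts acetoacetate and beta-hydroxybutyrate in mitochondria. Its arrays read 1657.4 and 1485.9 in sham, 2813.8 and 1929.7 at 1 h, 1698.1 and 1081.8 at 4 h, 1136 and 924.4 at 8 h and 376.4 and 353.2 at 24 h. The 1 h arrays were above and the 8 h and 24 h arrays below both sham arrays, and the 24 h level was 4.30-fold below sham (log2 change -2.11, SE 0.28, limma adjusted p = 0.00522). That call remained under every alternative. Acat1, the mitochondrial thiolase that condenses acetyl-CoA on the way to ketone bodies, was measured by 3 probe sets; on D00512_g_at it read 2465 and 2436.2 in sham and 2987.7 and 2696.1 at 24 h (log2 change 0.21, limma adjusted p = 0.417).

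Ppara, the regulator, had no call. It read 265.5 and 250.7 in sham, 173.3 and 267.4 at 1 h, 245.3 and 255.9 at 4 h, 150.9 and 171.4 at 8 h and 135.8 and 212.9 at 24 h. Both arrays of the 8 h and 24 h groups were below sham, with changes of -0.68 and -0.60 (limma adjusted p = 0.255 and 0.236).

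A list of 91 further genes of the same pathways had 52 on the array and 48 tested, with 74 probe sets. None was called at 1 h (10 at an unadjusted p under 0.05, beside 636 of all 5285), 3 probe sets rose and 1 fell at 4 h, 1 rose and 2 fell at 8 h, and 4 rose and 6, of 5 genes, fell at 24 h. These calls were 5.41%, 4.05% and 13.5% of the 74 at 4, 8 and 24 h, near the 4.35%, 3.50% and 10.3% of all probe sets. Pdk4, a kinase that shuts off pyruvate oxidation, read 129.8 and 84.7 in sham, 300.7 and 378.4 at 1 h, 1247.4 and 1031.2 at 4 h, 236.8 and 254.2 at 8 h and 46.1 and 80.5 at 24 h, a sharp peak at 4 h (log2 change 3.44, SE 0.32, limma adjusted p = 0.0016). Plin2, the coat protein of lipid droplets, read 2990.6 and 2938.1 in sham and 10090.9 and 9851.3 at 24 h (log2 change 1.75, SE 0.18, limma adjusted p = 0.00184). Fabp5, a fatty acid carrier of many tissues, rose at 4, 8 and 24 h, from 877.1 and 686.3 in sham to 2800.6 and 2617.8 at 8 h (log2 change 1.80, limma adjusted p = 0.0047). Amacr, a racemase for branched chains, fell at the same times, from 2869.5 and 3312.4 to 1198.8 and 907 at 4 h (log2 change -1.56, limma adjusted p = 0.00389). Slc16a1, a transporter of ketone bodies and lactate, rose at 24 h on the dim D63834_at, with a mean of 169.65 in sham (log2 change 1.44, limma adjusted p = 0.0109). Its brighter probe set rc_AI145680_s_at, with means of 606.05 in sham and 1109.1 at 24 h, had no call. Acot7, a thioesterase, had 3 probe sets that disagreed: the dim D88890_at, with a mean of 124.8 in sham, rose at 4 and 24 h (log2 changes 1.30 and 1.28, limma adjusted p = 0.015 and 0.0103), while the brighter U49694_at and Y09332cds_s_at changed by -0.04 and 0.01 at 4 h and by -0.59 and -0.34 at 24 h, with no call. The other calls were falls of Decr2, Aldh3a2, Acat2 and Pdk2 at 24 h, with log2 changes of -1.28 to -0.70, and of Lipc, hepatic lipase, at 8 h (-1.29). Nr1h3, the oxysterol receptor LXR-alpha, passed the F test but no single time against sham.

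The steps between burn times set burn arrays against burn arrays. From 1 to 4 h, 2 of the 58 probe sets (3.45%) were called, both higher. Of all 5285, 264 were called over that step, 2.46% as higher and 2.54% as lower. From 4 to 8 h, 7 of the 58 were called, 2 higher and 5 lower, against 8.29% of all (3.48% higher and 4.81% lower). From 8 to 24 h, 12 of the 58 were called, 1 higher and 11 lower, against 11.8% of all (5.81% higher and 5.94% lower). From 8 to 24 h all 15 uptake, binding and activation probe sets had negative changes, with a median of -0.56, beside 0.07 over all probe sets; under quantile normalization 14 of the 15 did. The Cpt1a probe set was the one called higher over that interval, while 22 of the 58 probe sets lay above 0.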

How the data were processed

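Total RNA of rat liver was measured on 10 expression arrays, 2 for each of 5 groups. The authors deposited 1 intensity value per probe set and array on a linear scale, scaled so that each array's mean after trimming 2% at both ends was 500.9 to 501, judged from the deposited values. The array software and its version were not given in the sources used here. A floor of 36.4 was set, the median over arrays of the 25th percentile; lower values were raised to it, and log2 was taken. Folds divide geometric means of floored values, and "at least" marks a fold in which both arrays of 1 group lay at the floor. Probe sets above the array median on at least 2 of 10 arrays were tested (5285). This filter can keep a probe set on the strength of 1 group. Of 8799 probe sets, the probe table gave 1 symbol to 7018, several to 308 and none to 1473. The 5 groups were fitted in 1 limma 3.58.1 model in R 4.3.3 with 5 residual degrees of freedom and no covariate, two-sided, with Benjamini-Hochberg adjustment over 5285 probe sets. The code was tested on simulated data. The number of arrays limits the precision. Named are genes called against sham or by the F test, the 2 genes of each role with the smallest F test p, and the called genes of the further list; other genes are given for completeness. The genes, the lists and the tests were chosen with earlier results of these data known. Alternatives were quantile normalization, a common median, floors at the 10th (13.65) and 50th (121.3) percentile, an intensity trend with robust variance, no filter, a replicate block, the 2 groups of a comparison alone, plain probe set designs alone (names without a letter code before _at), and each array left out.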

Additional observations from a re-analysis of the deposited data

Results flagged for a closer look

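In 21 cases a change between neighbouring burn times passed limma's test of the difference itself (adjusted p under 0.05), so the effect against sham differed between those times. Each value below is a log2 change, later minus earlier.

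From 1 to 4 h the Cd36 probe set AB005743_g_at changed by 2.31 and the Pex11a probe set rc_AA892128_at by 1.19. The first call ended without any single 1 h or 4 h array (limma adjusted p up to 0.0635) and the second without the second 1 h array (0.0546).

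From 4 to 8 h Acaa1b changed by 1.31 and the Etfdh probe set rc_AI237007_at by -2.15, and both calls remained with each array left out in turn. The Eci1 probe set D00729_g_at changed by 0.67 and the Etfdh probe set rc_AI176422_g_at by -0.77, and each of these calls ended without any single array (limma adjusted p up to 0.14). Crot changed by -1.21 on J02844_s_at and by -1.21 on U26033_at. The first call ended without any single array of the sham, 1 h, 4 h or 8 h groups (up to 0.192) and the second without any single array other than the first at 8 h (up to 0.165). Acox2 changed by -0.88, a call that ended without any single 1 h, 4 h or 24 h array or the second 8 h array (up to 0.144).

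From 8 to 24 h Acsl1 changed by -1.77 on D90109_at, -1.39 on rc_AA893242_g_at, -1.19 on rc_AI044900_s_at and -3.08 on rc_AA893242_at. The first 3 of these calls remained with each array left out in turn, as did those of Cd36 (AB005743_g_at, -3.14), Etfdh (rc_AI237007_at, -2.06) and Pex11a (rc_AA892128_at, -1.12). The call of Acsl1 rc_AA893242_at ended without the first 8 h array or either 24 h array (limma adjusted p up to 0.0825). Bdh1 changed by -1.49 and the Hsd17b4 probe set rc_AI101743_s_at by -1.08, and both calls ended without any single 8 h or 24 h array (up to 0.083 and 0.0826). Acox3 changed by -2.61, which ended without any single 1 h, 8 h or 24 h array (up to 0.17). Cpt1a changed by 0.69 and Eci1 D00729_g_at by -0.55, and these calls ended without any single array (up to 0.148 and 0.167). At 24 h the arrays of Cd36 AB005743_g_at, Acsl1 rc_AA893242_at, Acox3 and Etfdh rc_AI237007_at were under the floor, so their changes depend on it: with the floor at the 50th percentile the change of Etfdh rc_AI237007_at was -0.32 and did not pass (limma adjusted p = 0.457).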

How the results depend on the processing

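With 2 arrays a group, most calls depended on which arrays were fitted. Of the 20 calls of named probe sets against sham, 6 remained with each array left out in turn and 14 ended without at least 1 array. An ended call need not rest on the array left out, since all groups were fitted in 1 model. Cpt1a at 4 h kept its log2 change of 0.84 without the first 1 h array, which is in neither group compared. The 2 calls of Bdh1 and Etfdh at 24 h remained under every alternative they could be fitted in. No called change turned its direction under any of them. The absence of a call also depended on the setting. Of the 80 uncalled values of named probe sets against sham, 8 passed with the intensity trend and robust variance, and others passed under further alternatives. When arrays were left out in turn, the probe sets called of the 58 ranged from 0 to 1 at 1 h, 1 to 2 at 4 h, 1 to 5 at 8 h, 5 to 9 at 24 h, 0 to 2 from 1 to 4 h, 2 to 5 from 4 to 8 h, 6 to 10 from 8 to 24 h and 10 to 14 by the F test. The counts as reported are 0, 2, 7, 11, 2, 7, 12 and 15 for the same comparisons. At 4, 8 and 24 h fewer of all probe sets were called too whenever an array was left out. Quantile normalization gave 4 from 4 to 8 h (2 higher, 2 lower, against 2 and 5), beside 7.19% of all probe sets. Arrays scaled to a common median gave 1 at 4 h, 7 at 24 h and 2 from 4 to 8 h (1 higher, 1 lower). The shares of all probe sets were 3.61%, 6.68% and 5.73%. At 8 h both scalings gave 5 higher and 1 lower, beside 3.16% of all with quantile normalization and 1.85% with the common median. The common median moved the median log2 change of all probe sets from -0.07 to 0.06 from 4 to 8 h and from 0.07 to -0.04 from 8 to 24 h. The floor at the 50th percentile gave 4 at 4 h and 4 from 1 to 4 h, beside 7.08% and 7.59% of all probe sets. No filter gave 2 of 63 at 1 h and 7 of 63 from 1 to 4 h, beside 1.19% and 3.70% of all 8799. The intensity trend with robust variance gave 1 at 1 h, 5 at 4 h, 5 from 1 to 4 h, 11 from 4 to 8 h and 24 by the F test. The shares of all probe sets were then 2.65%, 7.19%, 8.10%, 12.9% and 23.9%. With the 2 compared groups alone the counts were 0 at 4 h, 0 at 8 h, 2 at 24 h, 1 from 1 to 4 h, 0 from 4 to 8 h and 4 from 8 to 24 h, by limma on 4 arrays, a fit with fewer samples that ended every named call against sham other than those of Bdh1 and Etfdh at 24 h. Plain probe set designs alone, a smaller set of 37 among 3409, gave 3 at 8 h, 6 at 24 h and 9 by the F test. The shares of the 3409 were 1.97%, 8.68% and 12.6%. They gave 1 from 1 to 4 h, 4 from 4 to 8 h and 7 from 8 to 24 h, beside 3.73%, 7.39% and 10.5%. Without both 1 h arrays, an alternative chosen after seeing the data, 1 was called at 4 h, 4 at 8 h and 2 from 4 to 8 h. The shares of all probe sets were 4.00%, 1.86% and 6.33%. For the other settings the cause was not tested.

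The labels do not state whether same-numbered arrays of different groups are paired or share a batch. The deviations of same-numbered arrays from their group means correlated at 0.011 to 0.17 over 10 pairs of groups, all above 0 as a hint from the data only. In a fit with a replicate block the counts were 0, 2, 6, 11, 2, 7, 12 and 14. The shares of all probe sets were 1.36%, 4.54%, 2.95%, 11.0%, 5.43%, 8.34%, 12.4% and 15.9%. The named calls that this fit ended were those of Eci1 rc_AI170568_s_at at 8 h (limma adjusted p = 0.05004), Cd36 AB005743_g_at at 24 h (0.0561) and Eci1 D00729_g_at from 8 to 24 h (0.0515).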
